A study of Mus musculus with 4 samples.

Results

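The regions described here are 1 kb stretches of the mouse genome (tiles, build mm10) whose CpG methylation was lower in neurons derived from R1 embryonic stem cells (ESCs) than in the R1 ESCs themselves. A tile was tested when at least 5 CpG sites were listed in both R1 libraries, its level was the unweighted mean of the percentages of those sites, and it became a member when R1 neurons lay at least 10 points below R1 ESCs. Of 114478 tiles tested, 497 were members, which is 0.434% of them. In the same comparison 89639 tiles rose by at least 10 points, or 78.3%, and 24342 moved by less.

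Methylation was measured by reduced representation bisulfite sequencing (RRBS), in which DNA is cut with MspI at CCGG, converted with bisulfite and sequenced. The 4 libraries are R1 ESCs (wild type), Tet/Tet ESCs (genotype Dnmt1 Tet/Tet), R1 neurons and Tet/Tet neurons. Each condition was sequenced once, so no value has a replicate check and no p-value is given. The maintenance methyltransferase DNMT1 is overexpressed in the Tet/Tet line, which was made from R1 ESCs by placing tet-off constructs behind the Dnmt1 promoter. It is a single line grown with Puromycin (1 µg/ml) and Neomycin (150 µg/ml), which R1 cells were not given. Neurons were obtained from either line through 2 days of embryoid bodies without LIF and 10 to 15 days in Ndiff227 medium, and the labels give no purity for them. The labels give different DNA extractions for ESCs and neurons, whereas the study's methods give a single one for all samples. The labels also put ESCs and neurons under separate project names, so in the comparison that chose the members cell type and project cannot be told apart. The files list 2311939 to 5298360 sites per library, with no read totals, so the depth behind a site is unknown. The mean over all listed sites was 29.9% (R1) and 34.6% (Tet/Tet) in ESCs and 71.02% (R1) and 12.2% (Tet/Tet) in neurons, so Tet/Tet neurons were low over the whole library and not at members alone. No values of Tet/Tet neurons were analysed here for chromosomes 8 and 9 and for parts of chromosomes 7 and 10, where 96 members lie.

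Methylation of cytosine in CpG is copied onto new DNA strands by DNMT1 and laid down afresh by DNMT3A and DNMT3B. It can be lost when copying fails over cell divisions, or by oxidation through the TET enzymes. Promoters in CpG islands usually carry little of it in any cell type, whereas enhancers often carry less in the cell types in which they are active than elsewhere.

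The stretches of 200 bases below show the sequence at 6 members, read from the GRCm38 (mm10) reference, 5′ to 3′ in lower case, with each CpG listed in both R1 libraries in capitals. Each is the window of its tile with the most such CpGs. The first group holds 4 tiles chosen, after the values were seen, because every one of their sites was lower in R1 neurons and because Tet/Tet ESCs were like R1 ESCs there.

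Olig2 (chr16:91173440-91173639, plus strand): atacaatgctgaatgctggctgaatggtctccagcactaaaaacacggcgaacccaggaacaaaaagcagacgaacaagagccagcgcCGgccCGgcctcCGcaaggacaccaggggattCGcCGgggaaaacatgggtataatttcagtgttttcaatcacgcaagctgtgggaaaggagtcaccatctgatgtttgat
Irx4 (chr13:73035001-73035200, plus strand): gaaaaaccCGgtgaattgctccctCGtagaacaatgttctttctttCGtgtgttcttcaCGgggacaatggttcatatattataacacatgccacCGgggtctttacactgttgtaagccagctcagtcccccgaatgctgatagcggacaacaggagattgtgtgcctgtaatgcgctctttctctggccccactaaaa
Agap1 (chr1:89703402-89703601, plus strand): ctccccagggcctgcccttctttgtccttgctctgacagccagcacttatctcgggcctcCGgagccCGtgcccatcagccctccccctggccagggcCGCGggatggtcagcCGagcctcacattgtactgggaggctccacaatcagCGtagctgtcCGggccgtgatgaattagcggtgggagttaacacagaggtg
Sdk2 (chr11:114040559-114040758, plus strand): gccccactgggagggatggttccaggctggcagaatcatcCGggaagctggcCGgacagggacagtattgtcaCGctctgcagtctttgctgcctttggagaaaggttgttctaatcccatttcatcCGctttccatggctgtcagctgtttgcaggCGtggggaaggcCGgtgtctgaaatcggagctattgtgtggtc

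The second group holds, as contrast, an intergenic tile upstream of Lrfn2, from the members with at least 10 sites and the largest falls, and the promoter tile of Id2, the sole member of the proneural bHLH list.

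Lrfn2 (chr17:48774712-48774911, plus strand): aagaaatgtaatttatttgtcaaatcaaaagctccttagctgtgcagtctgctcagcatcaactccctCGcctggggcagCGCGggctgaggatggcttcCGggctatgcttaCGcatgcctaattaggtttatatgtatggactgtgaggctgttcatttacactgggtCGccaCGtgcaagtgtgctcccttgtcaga
Id2 (chr12:25097409-25097608, plus strand): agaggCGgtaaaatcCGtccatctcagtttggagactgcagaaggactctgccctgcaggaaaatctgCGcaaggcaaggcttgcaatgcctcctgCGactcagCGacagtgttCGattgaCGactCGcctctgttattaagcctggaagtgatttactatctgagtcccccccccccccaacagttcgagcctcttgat

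The listed CpGs of the Olig2 and Irx4 windows lie outside CpG islands, and those of Olig2 sit close together.

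Members were selected on the R1 ESC and R1 neuron levels, so the values in this paragraph are a description. The median level of members went from 71.2% in R1 ESCs to 44.6% in R1 neurons, and the median difference was -16.7 points. Over all tiles tested the medians were 33.4% and 89.7%, with a median difference of 34.5 points. The fall reached 20 points in 192 members, which is 0.168% of the tiles tested, 50 points in 16 and 87.5 points in 1, an intronic tile of Fndc3b. At the limit itself stood tiles such as one near Gm21775 on chromosome Y, at 100% and 90%, while a Foxf2 tile at 15.1% and 5.10% and a Ythdf3 tile at 93.2% and 83.3% fell just short. Members rested on few sites: 316 of them had 5 or 6 sites, 71 had at least 10, and the median was 6.

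**Figure D1:**
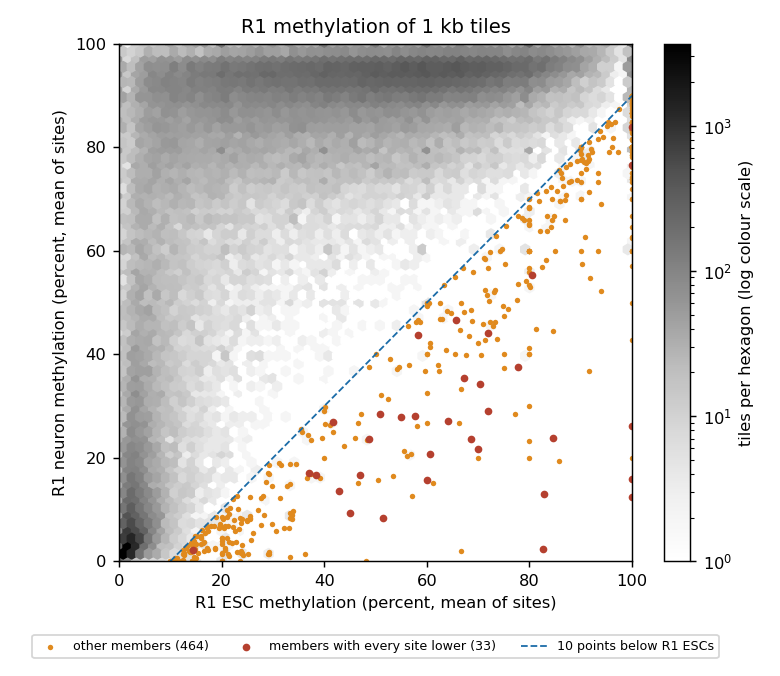
Each hexagon counts 1 kb tiles by their mean methylation in R1 ESCs (x axis, percent) and R1 neurons (y axis, percent), with a log colour scale. Members are drawn as points below the dashed line, which marks a fall of 10 points: 33 in red had every site lower and 464 in orange did not.

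The share of tiles that were members was not even along the range of R1 ESC levels. It was 9.83% among tiles at 90 to 100% in R1 ESCs, 0.162% among those at 40 to 50%, and 0.665% among those at 20 to 30%. It also fell with the number of sites, from 0.702% of tiles with 5 or 6 sites to 0.122% of tiles with 20 or more. Where no site lay in an MspI fragment of 40 to 220 bp, the size that RRBS usually samples, 1.10% of tiles were members, against 0.173% where most of the sites did. On average 65.7% of a member's sites read exactly 0 or 100% in R1 ESCs, against 29.2% over all tiles. How far the number of reads per site enters these shares was not tested, since the files do not give it.

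**Figure D2:**
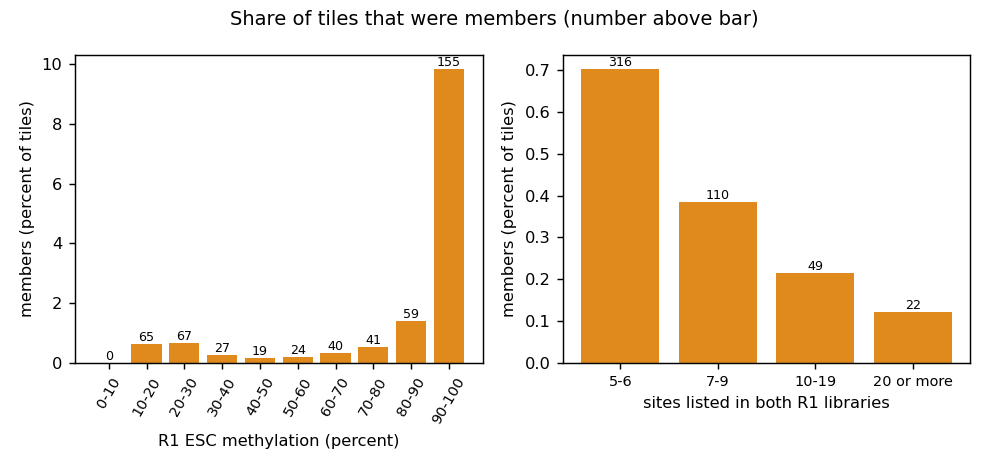
Bars give members as a percent of tiles tested, by R1 ESC methylation (left) and by the number of sites (right), starting at 0, with the number of members above each bar. The bar at 90 to 100% in R1 ESCs stands at 9.83%, and the bars by site number step down from 0.702% to 0.122%.

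Single sites did not all follow their tile. In 198 of 497 members more sites were lower than were not, and in 33 members every site was lower in R1 neurons. Those 33 tiles were singled out after the values were seen, so what follows for them is a description. Among all tiles tested, every site was lower in 41 and every site was higher in 44824. The other 464 members were divided at an R1 ESC level of 40%, into 156 tiles below it and 308 at or above it.

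The 33 tiles with every site lower went from a median of 65.7% in R1 ESCs to 23.9% in R1 neurons. They lay away from promoters: 16 were in introns, 14 were intergenic and 1 overlapped a promoter. Their median distance to the nearest protein-coding start site, or that of the gene they overlap, was 58.3 kb, against 32.2 kb over all members. The other members at or above 40% in R1 ESCs also lay away from promoters, which 10 of 308, or 3.25%, overlapped. Over all promoter tiles the median number of sites was 23, whereas the 33 tiles held at most 8. A median of 14.3% of their sites read exactly 0 or 100% in R1 ESCs, although 50 of their 192 sites, in 17 tiles, read 100% there. A median of 57.1% of their sites lay in MspI fragments of 40 to 220 bp, near the 51.7% of all tiles. A single one of them held a site in a CpG island and 2 were mostly repeat sequence.

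Tet/Tet ESCs were not used by the rule. Of the 27 with at least 5 sites listed in Tet/Tet ESCs, 19, or 70.4%, lay within 10 points of R1 ESCs, against 76.3% of all tiles, and 23 lay at least 10 points above R1 neurons. Over the same sites the median was 58.3% in Tet/Tet ESCs, beside 60.04% in ESCs and 23.7% in neurons of R1. Among the other members 73 of 280 lay at least 10 points above R1 neurons, and over all tiles 0.269% did. This count shares the R1 neuron values with the rule. The 4 tiles that did not reach 10 points above R1 neurons were those at Kpna6, Ccdc85c, Cmpk2 and Tenm4.

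The tiles named next were chosen after their values were seen. The gene given is the one the tile overlaps, or else the one with the nearest start site, and that start is often far away. A tile 52.0 kb upstream of Olig2, a bHLH factor of motor neuron and oligodendrocyte progenitors (chr16:91173001-91174000, intergenic), stood at 64.1% (R1) and 57.1% (Tet/Tet) in ESCs and at 27.1% (R1) and 18.4% (Tet/Tet) in neurons. It fell by 37.0 ± 11.6 points (SD over its 5 sites) in R1. Its 5 sites ranged from 48.1% to 79.0% in R1 ESCs and from 20% to 32.7% in R1 neurons, without overlap, although 1 of them read 0% in Tet/Tet ESCs.

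Iroquois genes encode homeodomain factors that pattern the neural tube, and Irx4 and Irx3 had the nearest start sites of 2 tiles of this set. The Irx4 tile (chr13:73035001-73036000, intergenic, 225 kb upstream) stood at 60.6% (R1) and 59.9% (Tet/Tet) in ESCs and at 20.7% (R1) and 10.6% (Tet/Tet) in neurons. It fell by 39.9 ± 15.4 points (SD over its 5 sites). An intergenic tile 109.6 kb from the start of Irx3 (chr8:91692001-91693000) stood at 65.7% (R1) and 60.9% (Tet/Tet) in ESCs and at 46.7% in R1 neurons, Tet/Tet neurons not being analysed there. Of these, the Irx4 tile had sites from 44.2% to 66.4% in R1 ESCs and from 16.9% to 31.8% in R1 neurons.

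In Agap1, which encodes a GTPase-activating protein for Arf in endosomal traffic, an intronic tile (chr1:89703001-89704000) stood at 47.0% (R1) and 56.0% (Tet/Tet) in ESCs and at 16.7% (R1) and 10.2% (Tet/Tet) in neurons. Its 7 sites fell together, and the tile fell by 30.2 ± 7.03 points (SD over its 7 sites). In Sdk2, a synaptic adhesion molecule of the retina, an intronic tile (chr11:114040001-114041000) stood at 42.8% (R1) and 47.0% (Tet/Tet) in ESCs and at 13.5% (R1) and 14.6% (Tet/Tet) in neurons. In Stx8, a SNARE protein of endosomes, the intronic tile (chr11:68050001-68051000) stood at 70.0% in ESCs and 21.6% in neurons of R1 over 8 sites. Over the 6 sites listed in every library the means were 60.04% (R1) and 66.0% (Tet/Tet) in ESCs and 21.9% (R1) and 18.7% (Tet/Tet) in neurons. All 3 had both ESC libraries above both neuron libraries. The order of the R1 libraries was set by the rule. In Tet/Tet, 98.8% of all tiles at 40% or more in ESCs fell by at least 10 points.

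Auts2, a gene linked to neurodevelopmental disorders, had an intronic tile (chr5:131646001-131647000) at 84.5% (R1) and 85.6% (Tet/Tet) in ESCs and at 23.9% (R1) and 9.55% (Tet/Tet) in neurons. In Pax5, a paired-box factor of B cells and of the midbrain-hindbrain boundary, an intronic tile (chr4:44561001-44562000) stood at 70.3% (R1) and 61.2% (Tet/Tet) in ESCs and at 34.3% (R1) and 11.1% (Tet/Tet) in neurons. Scube1, a secreted and membrane-bound EGF-domain protein, had an intronic tile (chr15:83699001-83700000) at 67.3% (R1) and 58.3% (Tet/Tet) in ESCs and at 35.5% (R1) and 8.69% (Tet/Tet) in neurons. In each of the 3, Tet/Tet ESCs lay nearer to R1 ESCs than to R1 neurons.

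Ets1, an ETS-family factor, lay 199 kb from an intergenic tile (chr9:32835001-32836000) at 54.9% (R1) and 57.5% (Tet/Tet) in ESCs and at 27.9% in R1 neurons, Tet/Tet neurons not being analysed there. A tile 7.18 kb downstream of the start of Zfp703, a zinc-finger repressor (chr8:26984001-26985000), stood at 51.6% (R1) and 46.7% (Tet/Tet) in ESCs and at 8.39% in R1 neurons, Tet/Tet neurons not being analysed there. In Cntfr, the receptor for ciliary neurotrophic factor, a tile in a UTR (chr4:41686001-41687000) stood at 38.4% (R1) and 29.1% (Tet/Tet) in ESCs and at 16.7% (R1) and 7.77% (Tet/Tet) in neurons. At Cntfr both neuron libraries were below both ESC libraries, the order in R1 being set by the rule.

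The largest falls of the set were not all matched in Tet/Tet ESCs. Fndc3b, which encodes a membrane protein with fibronectin type III domains, had an intronic tile (chr3:27573001-27574000) in which all 8 sites read 100% in R1 ESCs, 6 of 7 listed sites read 100% in Tet/Tet ESCs, and the mean was 12.5% in R1 neurons. An intronic tile of the nuclear import receptor gene Kpna6 (chr4:129671001-129672000) stood at 82.7% (R1) and 2.96% (Tet/Tet) in ESCs and at 2.35% (R1) and 7.72% (Tet/Tet) in neurons, so that R1 ESCs alone were high there.

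**Figure D3:**
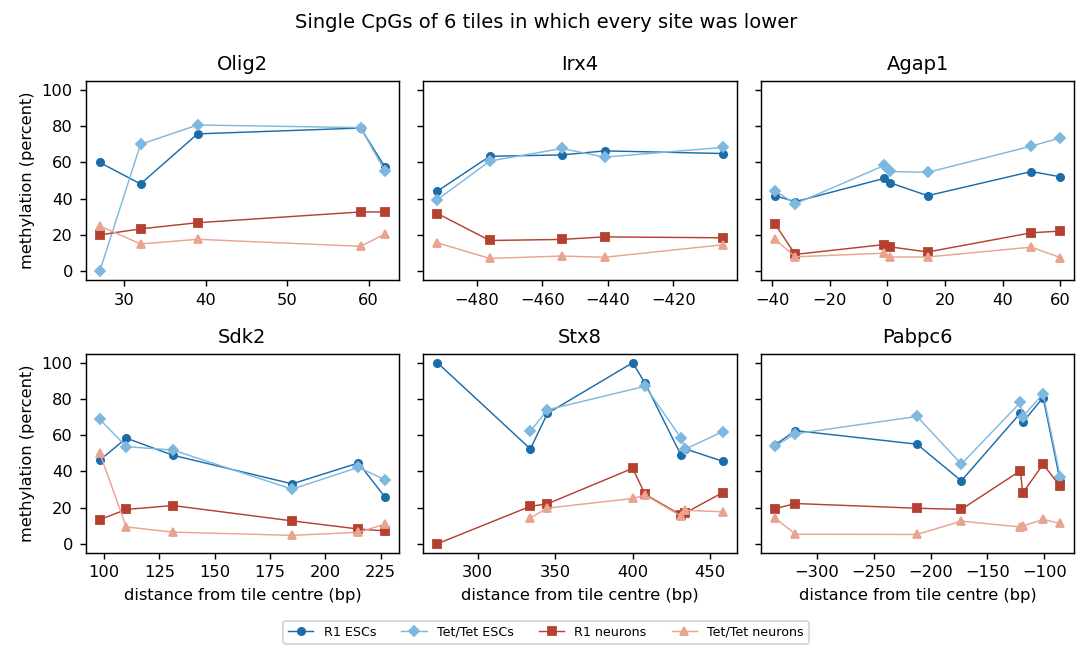
Each panel plots single CpGs of 1 tile, with distance from the tile's centre in bp on the x axis and methylation in percent on the y axis, for the 4 libraries. In every panel each site of R1 neurons (dark red squares) lies below the same site of R1 ESCs (dark blue circles), and at Irx4 the Tet/Tet ESC sites run from 39.5% to 68.3% beside R1 ESC sites of 44.2% to 66.4%.

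The 156 other members under 40% in R1 ESCs showed another pattern. Their R1 medians were 20.6% in ESCs and 4.44% in neurons, 91 of them overlapped a promoter and 73 held sites in a CpG island. Over the sites listed in Tet/Tet ESCs their median was 2.84% in Tet/Tet ESCs against 17.7% in ESCs and 4.40% in neurons of R1, so Tet/Tet ESCs stood beside the neurons. Part of the height of R1 ESCs lay in sites that read exactly 100%. At least 1 such site was held by 136 of these 156 tiles, and by 41097 of all 114478 tiles. Such sites were 284 of 1849 in these tiles, or 15.4%, against 5.08% over all tiles. The other sites of these tiles had R1 means of 5.91% in ESCs and 5.10% in neurons. Leaving out sites at 100% in R1 ESCs itself lowers the R1 ESC mean, so these means are a description. Of their sites at 100%, 60.6% were listed in Tet/Tet ESCs, with a mean there of 15.1%, while 90.6% of the other sites were listed. Over all tiles 61.8% of the sites at 100% were listed, with a mean of 68.3%, and 95.6% of the other sites.

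Promoter tiles followed the same pattern. The 102 promoter members had R1 medians of 20% in ESCs and 3.35% in neurons, with Tet/Tet ESCs at 2.77% where listed, beside 2.52% (ESCs) and 5.41% (neurons) in R1 over all 22761 promoter tiles. At the start of Nosip, which encodes a protein interacting with nitric oxide synthase (chr7:45062001-45063000, UTR), the tile stood at 29.2% in ESCs and 1.90% in neurons of R1 over 22 sites. Of these sites 6 read 100% in R1 ESCs, 0% in R1 neurons and were not listed in Tet/Tet ESCs, and over the 16 sites listed in every library the means were 2.65% (R1) and 2.26% (Tet/Tet) in ESCs and 2.61% (R1) and 2.18% (Tet/Tet) in neurons. The 4 libraries were alike at those sites.

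At Pls3, a plastin that bundles actin (chrX:75874001-75875000, UTR), the tile stood at 33.1% in ESCs and 6.38% in neurons of R1 over 22 sites, and here its 7 sites at 100% in R1 ESCs were listed in Tet/Tet ESCs. There, over the 20 sites listed in every library the means were 36.5% (R1) and 1.48% (Tet/Tet) in ESCs and 7.02% (R1) and 1.27% (Tet/Tet) in neurons. At these 7 sites R1 ESCs stood above the other libraries, except at 1 site that read 100% in R1 neurons too.

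**Figure D4:**
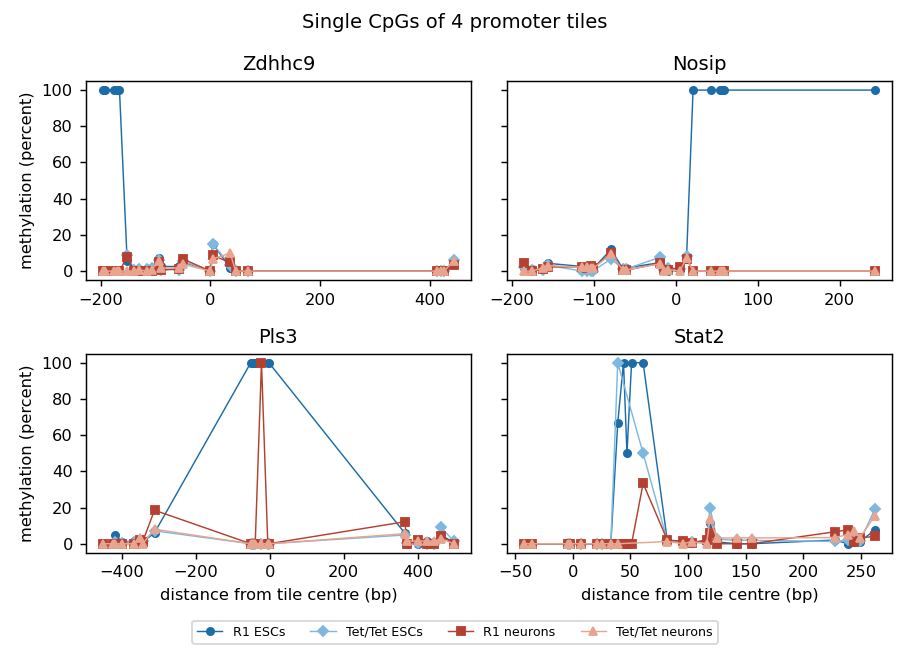
Single CpGs of 4 promoter tiles are plotted by distance from the tile's centre (x axis, bp) against methylation (y axis, percent) in the 4 libraries. R1 ESCs (dark blue circles) read 100% at 5 sites at Zdhhc9, 6 at Nosip, 7 at Pls3 and 3 at Stat2, and lie near 0% at most other sites, as the other libraries do.

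The remaining promoter tiles with the largest falls described here are those of Id2, Auts2, Alg14 and Fam45a. In Id2, an inhibitor of bHLH factors (chr12:25097001-25098000, UTR), the tile stood at 81.2% in ESCs and 45% in neurons of R1 over 8 sites and no site was listed in Tet/Tet ESCs. Of these sites 4 were lower in R1 neurons, 3 were equal and 1 was higher. In R1 ESCs 6 of them read 100%, and the mean of the others rose from 25% in ESCs to 55% in neurons of R1. Of those others, 1 went from 0% to 60% and 1 stayed at 50%. The tile at the start of Auts2 (chr5:132542001-132543000, noncoding exon) stood at 33.3% in ESCs and 0.926% in neurons of R1 over 9 sites, of which 3 were at 100% in R1 ESCs and the rest at 0%. Alg14, a subunit of the enzyme for N-glycan assembly (chr3:121292001-121293000), stood at 29.3% in ESCs and 1.44% in neurons of R1 over 9 sites with Tet/Tet ESCs at 11.98%, and Fam45a (chr19:60811001-60812000) at 32.2% in ESCs and 6.47% in neurons of R1 over 10 sites with Tet/Tet ESCs at 13.1%.

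Of the tiles with at least 10 sites and the largest falls, 5 lay outside promoters, at Nkx6-1, Cdh23, Lrfn2, Rhpn2 and Snhg11. An intergenic tile far downstream of the start of Nkx6-1, a homeodomain factor of ventral neural progenitors (chr5:101323001-101324000), stood at 58.1% in ESCs and 26.1% in neurons of R1 over 11 sites, with 9 sites lower and 2 higher, and over the 10 sites listed in every library the means were 53.9% (R1) and 59.6% (Tet/Tet) in ESCs and 28.7% (R1) and 5.96% (Tet/Tet) in neurons. In Cdh23, a cadherin of hair-cell tip links, an intronic tile (chr10:60579001-60580000) stood at 70.9% in ESCs and 45.9% in neurons of R1 over 10 sites with Tet/Tet ESCs at 78.7%, and it had no site at 100% in R1 ESCs. Upstream of Lrfn2, a synaptic adhesion molecule, an intergenic tile (chr17:48774001-48775000) stood at 75.1% in ESCs and 47.4% in neurons of R1 over 11 sites, and over the 8 sites listed in every library the means were 65.7% (R1) and 69.1% (Tet/Tet) in ESCs and 55.2% (R1) and 12.7% (Tet/Tet) in neurons. At Nkx6-1 and Cdh23 the Tet/Tet ESC level lay near that of R1 ESCs, whereas at Lrfn2 the fall shrank over the sites in all 4 libraries.

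The other tiles of that group were a coding tile of Rhpn2 (chr7:35371001-35372000), at 65.6% in ESCs and 40.1% in neurons of R1 over 11 sites, and tiles at Arhgef25, D630003M21Rik, Snhg11 and Man2b1. Arhgef25, a guanine nucleotide exchange factor (chr10:127190001-127191000), stood at 33.7% in ESCs and 8.19% in neurons of R1 over 10 sites, with 3 sites lower and 7 higher. The tile near Snhg11 (chr2:158361001-158362000) stood at 25.1% in ESCs and 1.36% in neurons of R1 over 21 sites, that of D630003M21Rik (chr2:158228001-158229000) at 68.2% in ESCs and 43.6% in neurons of R1 over 11 sites, and that of Man2b1, a lysosomal mannosidase (chr8:85083001-85084000), at 24.2% in ESCs and 1.30% in neurons of R1 over 13 sites. Leaving aside the sites at 100% in R1 ESCs, which itself lowers the R1 ESC mean, the R1 means were 1.71% in ESCs and 1.79% in neurons at Snhg11. At Man2b1 they were 1.47% and 1.69%. At Rhpn2, where 6 of 11 sites read 100% in R1 ESCs, the mean of the remaining sites rose from 24.2% in ESCs to 43.5% in neurons of R1. A single site there went from 0% to 100%. The others went from 43.0% to 30.4%, 29.1% to 28.3%, 21.5% to 22.6% and 27.5% to 36%. The mean of the remaining sites also rose at D630003M21Rik, from 12.5% to 28.1%, and at Arhgef25, from 5.32% to 11.7%. At D630003M21Rik a single remaining site rose, from 0% to 100%, while another fell from 50% to 12.5% and the rest stayed at 0%.

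Members with at least 10 sites were also ranked for low neuron levels where Tet/Tet ESCs were no more than 10 points below R1 ESCs over the sites in all 4 libraries. The leading 8 were tiles at Zdhhc9, Taf1a, Nosip, Rpl23a, Gm1673, Plekhm1, Armcx2 and Stat2, all at promoters. Over the sites in all 4 libraries R1 ESCs lay between 1.16% (Taf1a) and 4.91% (Armcx2), so every library was low at those sites. The low neuron levels follow from the ranking. Over all sites listed in both R1 libraries, R1 ESCs lay between 12.7% (Taf1a) and 29.2% (Nosip).

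The 308 other members at or above 40% in R1 ESCs made up most of the set. Their R1 medians were 87.9% in ESCs and 68.4% in neurons, and 113 of them were mostly repeat sequence, as soft-masked in the reference. A median of 83.3% of their sites read exactly 0 or 100% in R1 ESCs and 1207 of their 1833 sites read 100%. Over the sites with Tet/Tet ESCs the median was 65.1% in Tet/Tet ESCs, beside 80% in ESCs and 60% in neurons of R1, so Tet/Tet ESCs lay between the R1 libraries. They were at least 10 points above R1 neurons in 52 of 150 tiles.

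In all members together, 307 had at least 5 sites listed in Tet/Tet ESCs. Tet/Tet ESCs were at least 10 points below R1 ESCs in 167 of them, or 54.4%, against 7.9% of all tiles, within 10 points in 129, or 42.0%, against 76.3%, and at least 10 points above in 11, or 3.58%, against 15.8%. The median of Tet/Tet ESCs minus R1 ESCs was -11.1 points, with quartiles of -20.1 and -0.16. These differences share the R1 ESC values with the rule. Tet/Tet ESC levels went with the R1 ESC level: the medians were 2.86% in Tet/Tet ESCs for 133 members at 10 to 40% in R1 ESCs, 52.7% for 61 members at 40 to 70%, 66.1% for 50 at 70 to 90%, and 78.4% for 63 at 90 to 100%. Tiles that were not members had medians of 26.8%, 59.0%, 76.0% and 83.8% in the same ranges, so the gap was widest in the lowest range.

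The change from Tet/Tet ESCs to Tet/Tet neurons shares no library with the rule. It could be followed in the 228 members with at least 5 sites in all 4 libraries, of which 127, or 55.7%, fell by at least 10 points, against 54.5% of all 80233 such tiles. A rise of at least 10 points was seen in 5 members, or 2.19%, against 2.56% of all tiles. How members compared with all tiles here depended on the setting: the share of members that fell in Tet/Tet was 23.9% against 24.0% of all tiles with at least 10 sites and 22.9% against 24.3% with even-numbered sites, but 73.1% against 67.1% with at least 3 sites and 81.3% against 53.0% with the median of the sites. The share went with the Tet/Tet ESC level: at 40% or more, 102 of 103 members and 98.8% of all tiles fell, and below it 25 of 125 members and 18.99% of all tiles did. Among the tiles with every site lower, 19 of 21 fell in Tet/Tet, of which 17 were at 40% or more.

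In Tet/Tet neurons the members' median was 6.87%, down from 24.6% in the ESCs of that line, and R1 went from 43.4% to 18.7% over the same sites. Over all tiles the Tet/Tet medians were 13.3% in neurons and 32.7% in ESCs. Tet/Tet neurons were at least 10 points below R1 neurons in 111 of 228 members, or 48.7%, against 79.6% of all tiles, and at least 10 points above in 5, against 0.0499% of all tiles. Both counts share the R1 neuron values with the rule, which chose tiles where R1 neurons were low beside R1 ESCs, so they are a description. The R1 neuron median over these sites was 88.9% for all tiles. Over the same sites in all 4 libraries the R1 fall of at least 10 points held in 187 of 228 members.

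**Figure D5:**
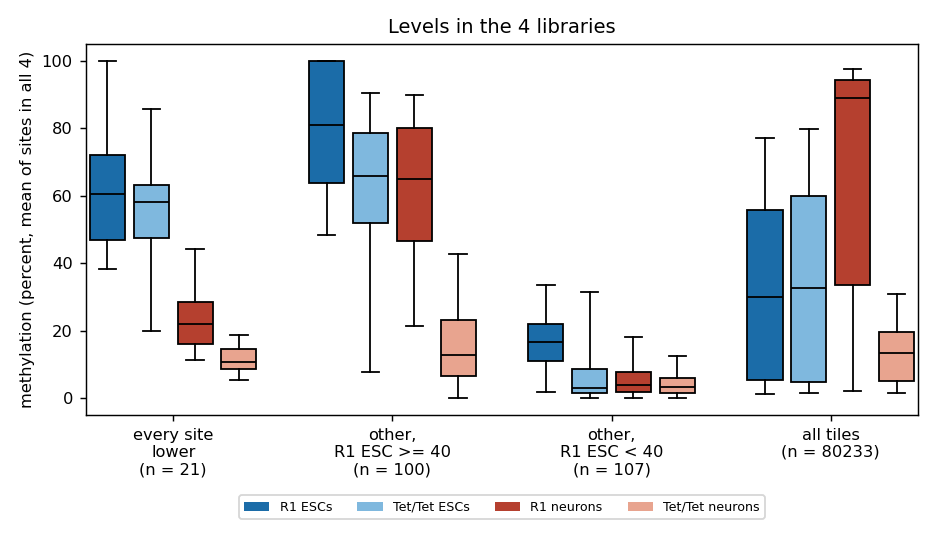
Boxes give methylation (percent, mean of the sites in all 4 libraries) in each library, with the median, the quartiles and whiskers from the 5th to the 95th percentile over tiles, for 21, 100 and 107 members of the 3 kinds and for 80233 tiles in all. R1 neurons stand at a median of 88.9% over all tiles and at 21.9% in the tiles with every site lower, where the ESC libraries stand at 60.6% and 58.3%.

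Location was not used by the rule. Promoters, reaching 1 kb to either side of a protein-coding start site, held 102 members, or 20.5%, beside 19.9% of all tiles. Gene bodies held 188, or 37.8%, beside 44.7%, and intergenic sequence held 207, or 41.7%, beside 35.4%. CpG islands held 91, or 18.3%, beside 23.1%, and 115, or 23.1%, were mostly soft-masked, beside 16.6%. The promoter share moved with the setting, from 3.10% against 19.9% of all tiles with the median of the sites to 60.6% against 43.5% with at least 10 sites. In all, 280 members overlapped 272 protein-coding genes. Chromosome Y held 7 members of 322 tiles tested, or 2.17%, near repeated genes whose reads may be shared between copies.

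Of 497 members, 176 had an adjacent tested tile and 2 had an adjacent member. The sole pair of adjacent members lay in repeat sequence far from the start of Gabrg1, a GABA-A receptor subunit (chr5:70661001-70663000), at 90.5% in ESCs and 70.2% in neurons of R1 over 11 sites. The first tile of the pair rose from 88.3% in ESCs to 93.3% in neurons of R1 over the 5 sites in all 4 libraries, so its fall was not held there. Tested tiles just before a member numbered 92 and those just after it 111, with 1 member among each, where 0.434% of all tiles were members. The medians of their differences were 4.66 and 6.08 points, against 34.5 points over all tiles. They were already low in R1 ESCs, with medians of 5.78% and 7.14%, against 33.4% over all tiles. Their R1 neuron medians were 13.04% and 16.9%, against 89.7%. At 2 tiles away the median differences were 24.5 and 25.5 points, with R1 ESC medians of 14.3% and 11.6%.

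Within tiles, sites were split by turns into odd and even ones. In the 40863 tiles with at least 5 of each, the odd sites fell by at least 10 points in 131, the even sites in 135, and both in 39. Where the odd sites fell, the median difference of the even sites was -0.15 points, against 15.3 points over all these tiles. Both sets of sites fell in tiles at Nkx6-1 and Cdh23, among others. They also fell at Rhpn2 and in promoter tiles such as that of Nosip. There, the mean of the sites below 100% in R1 ESCs rose (Rhpn2) or barely moved (Nosip) in R1 neurons. At Rhpn2 that rise came mostly from a site that went from 0% to 100%.

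Genes of development were covered by lists, a tile counting for a gene within 5 kb. Neural progenitor and patterning factors held 7 members among 443 tiles, or 1.58%, beside the 0.434% of all tiles. A tile within Meis1, a homeodomain partner of Hox proteins (chr11:19010001-19011000), stood at 62.3% (R1) and 33.6% (Tet/Tet) in ESCs and at 36.9% (R1) and 7.50% (Tet/Tet) in neurons. Pax7, a dorsal neural and muscle progenitor factor, held 2. The first (chr4:139808001-139809000) stood at 68.9% (R1, 8 sites) and 73.7% (Tet/Tet, 5 of them) in ESCs and at 46.6% in R1 neurons. The second (chr4:139836001-139837000) stood at 20.2% (R1) and 16.1% (Tet/Tet) in ESCs and at 8.27% (R1) and 2.31% (Tet/Tet) in neurons. A tile of Zbtb16, a zinc-finger repressor of progenitors (chr9:48663001-48664000), stood at 66.7% (R1) and 58.3% (Tet/Tet) in ESCs and at 50% in R1 neurons. The others were at Vim, Pou3f2 and Pou3f3, each at 20% or less in R1 ESCs.

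The Hox clusters held 3 members among 203 tiles, or 1.48%. A fall of at least 20 points left 0 of them, and 2 of the 7 members of the progenitor list, or 0.451% of its tiles, against 0.168% of all tiles. The tile at Hoxc5 and Hoxc6 (chr15:103011001-103012000) stood at 24.0% (R1) and 5.80% (Tet/Tet) in ESCs and at 8.24% (R1) and 4.24% (Tet/Tet) in neurons, and that at Hoxd3 and Hoxd4 (chr2:74734001-74735000) at 29.2% (R1) and 24.7% (Tet/Tet) in ESCs and at 16.8% (R1) and 11.1% (Tet/Tet) in neurons. At Hoxd3 the Tet/Tet neuron value was over 12 of the 13 sites. Tet/Tet ESCs lay nearer to R1 ESCs at Hoxd3, and below R1 neurons at Hoxc5. All tiles of the progenitor list moved by a median of 5.25 points and those of the Hox list by 3.77 points, against 34.5 points over all tiles.

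Genes of Notch, Shh, Wnt and Fgf signalling held 3 members among 647 tiles, or 0.464%, near the share of all tiles. Fgfr2, an FGF receptor (chr7:131778001-131779000), stood at 71.7% (R1) and 70.7% (Tet/Tet) in ESCs and at 51.4% in R1 neurons. Gli2, a transcription factor of Shh signalling (chr1:119047001-119048000), stood at 20.6% (R1) and 8.15% (Tet/Tet) in ESCs and at 6.85% (R1) and 5.92% (Tet/Tet) in neurons, and Ptch1, the Shh receptor (chr13:63567001-63568000), at 20.995% (R1) and 1.12% (Tet/Tet) in ESCs and at 8.65% (R1) and 6.12% (Tet/Tet) in neurons. Proneural bHLH factors held the Id2 tile alone of 95 tiles. Of 74 tiles of germline genes 1 was a member, at Hormad1, a meiotic chromosome axis protein, at 16.7% in ESCs and 2.08% in neurons of R1. Imprinted genes held 1 of 200 tiles, between Kcnq1 and Cdkn1c (chr7:143428001-143429000), at 60.5% (R1) and 72.5% (Tet/Tet) in ESCs and at 42.2% in R1 neurons. The R1 values were over 15 sites and the Tet/Tet value over 14 of them. No member was found among 410 tiles of neuronal identity genes, 106 of glial genes, 164 of pluripotency genes, 238 of mesoderm, endoderm and trophoblast factors, or 122 of DNA methyltransferases and TET enzymes.

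By nearest start site instead, 16 members, or 3.22%, lay next to a neural progenitor and patterning factor, beside 0.823% of all tiles, and 3 of the 33 tiles with every site lower did. Genes overlapped by more than 1 member were Auts2 with 3 of 35 tiles, and Adamts17, Agap1, Esrrg, Pax5, Scube1 and Setbp1 with 2 each. The median difference of all tested tiles of these genes ran from 25.8 points in Esrrg to 44.9 points in Scube1, so their members stood against a rise over most of the gene.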

How the data were processed

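RRBS of 4 libraries, 1 for each condition, was examined. Per the submitters' processing notes and the study's methods, the authors trimmed reads with Trim Galore 0.6.4, checked them with FastQC 0.11.8, mapped them to mm10 with Bismark 0.19.0 and called CpGs with MethylDackel 0.3.0. What they deposited is a percent of methylated reads for each CpG, from 0 to 100, without read totals. Each library was made from 200 ng of DNA cut with 30 units of MspI, keeping fragments of at least 50 bp.

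Sites on chromosomes 1 to 19, X and Y were placed on GRCm38 with genes of GENCODE M21. Every site weighed the same in the mean of a tile. CpG islands had a length over 200 bp, GC of 50% or more and a CpG frequency over 0.6 of that expected. Python 3.11.15, numpy 2.4.6, pandas 2.3.3 and numba 0.67.0 were used, and tile and island calling were tested on simulated data. Members and gene lists were chosen with earlier results of these data known.

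Named tiles were the 12 members with the largest fall among those with at least 10 sites, the 8 promoter members with the largest fall among those with at least 8 sites, the longest runs of adjacent members, up to 3 members per gene list, the genes with the most members, and 8 members with low neuron levels and Tet/Tet ESCs near R1 ESCs. Gene lists were read within 5 kb of a gene. Some tiles and sequences these rules name are not reported here. Tiles with every site lower were added after the values were seen. Thresholds, tile offsets, site choices and region definitions were varied. Tet/Tet neurons were not analysed here for chromosomes 8 and 9 and parts of 7 and 10.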

Additional observations from a re-analysis of the deposited data

Results flagged for a closer look

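In 5 members, of which 4 are described here, R1 fell by at least 10 points over the sites in all 4 libraries while Tet/Tet rose by at least 10 points. With 1 library per condition, this difference between the lines was not tested. The Setbp1 tile, in a gene for a SET-binding protein, stood at 68.6% and 48.6% in R1 ESCs and neurons, 23.3% and 80% in Tet/Tet, a rise of 56.7 points. At Fam208a, a subunit of a silencing complex, the values were 60% and 50% in R1 ESCs and neurons, 60% and 80% in Tet/Tet, a rise of 20 points. Myl12b, a myosin light chain, stood at 19.3% in R1 neurons, where 6 of 7 sites had read 100% in R1 ESCs, and went from 0% to 14.6% in Tet/Tet, a rise of 14.6 points. Cpeb3, an RNA-binding protein of synapses, stood at 28.6% and 15.4% in R1 ESCs and neurons, 0% and 12.4% in Tet/Tet, a rise of 12.4 points. Each rested on 5 to 7 sites, and 2.19% of members rose in Tet/Tet, beside 2.56% of all tiles.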

How the results depend on the processing

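The main values were 497 members, 55.7% of them falling by at least 10 points in Tet/Tet, a median of -9.03 points for Tet/Tet neurons minus R1 neurons, 20.5% in promoters, 18.3% in CpG islands, 23.1% mostly soft-masked and 0.402% with an adjacent member. At least 10 sites gave 71 members, 23.9% falling by 10 points in Tet/Tet, 60.6% in promoters, 54.9% in islands and 4.22% mostly soft-masked, and at least 3 sites gave 2219 members, 73.1% falling by 10 points in Tet/Tet, a median of -44.0 points for Tet/Tet neurons minus R1 neurons, 7.57% in promoters and 5.90% in islands. A fall of at least 20 points gave 192 members, 68.9% falling by 10 points in Tet/Tet, 16.7% in promoters, 12.5% in islands and 28.6% mostly soft-masked, and left 4 members near listed genes in place of 16. The median of the sites gave 81.3% falling by 10 points in Tet/Tet, a median of -50 points for Tet/Tet neurons minus R1 neurons, 3.10% in promoters and 5.28% in islands. Sites in MspI fragments of 40 to 220 bp gave 86 members, 47.1% falling by 10 points in Tet/Tet, 30.2% in promoters and 36.0% in islands. Sites listed in all 4 libraries gave 206 members, 63.6% falling by 10 points in Tet/Tet and 24.3% in islands. Odd-numbered sites gave 175 members, 30.7% falling by 10 points in Tet/Tet, 48.6% in promoters, 54.3% in islands and 16% mostly soft-masked, and even-numbered sites gave 135 members, 22.9% falling by 10 points in Tet/Tet, 51.1% in promoters, 57.04% in islands and 8.15% mostly soft-masked. Over all tiles the shares falling in Tet/Tet, in promoters, in islands and mostly soft-masked were 54.5%, 19.9%, 23.1% and 16.6% at the main setting, 24.0%, 43.5%, 55.5% and 11.3% with at least 10 sites, 67.1%, 12.3%, 12.8% and 18.3% with at least 3 sites, 53.0%, 19.9%, 23.1% and 16.6% with the median, 36.9%, 34.7%, 44.8% and 17.5% in MspI fragments, 54.5%, 22.0%, 25.9% and 16.8% with sites in all 4 libraries, 29.1%, 38.9%, 49.2% and 12.4% with odd-numbered and 24.3%, 43.5%, 55.4% and 11.3% with even-numbered sites. Under all of these settings except at least 3 sites, no member had an adjacent member, which is 0%. Promoters of 1 kb upstream held 12.5% and those of all gene types 24.6%, stricter islands held 9.46%, and any soft-masked site counted 38.6%. Tiles starting 500 bp later and leaving out chromosomes X and Y kept every value within its limits. The cause of these moves was not tested, except that fewer tiles can pass a stricter rule.

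Of the settings chosen after seeing the data, members with every site lower gave 33 members, 90.5% falling by 10 points in Tet/Tet, 3.03% in promoters, 3.03% in islands and 6.06% mostly soft-masked, and members with no site at 100% in R1 ESCs gave 47 members, 81.8% falling by 10 points in Tet/Tet, 12.8% in promoters and 2.13% mostly soft-masked. Members with Tet/Tet ESCs at least 10 points above R1 neurons gave 96 members, 94.0% falling by 10 points in Tet/Tet, 10.4% in promoters and 14.6% in islands, and turned the median of Tet/Tet ESCs minus R1 ESCs from -11.1 to 0.65 points, as that setting selects on Tet/Tet ESC values. None of the 3 left an adjacent member (0%). No paired analysis was possible because each condition has 1 library and no test was run. With 1 library per condition, no read totals and a median of 6 sites, the error of a single tile cannot be given.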

Other observations

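On chromosome X, 18 of 2960 tiles tested were members, or 0.608%, beside 0.434% of all tiles. Their R1 medians were 32.9% in ESCs and 8.45% in neurons. Of them 7, or 38.9%, lay at promoters, beside 20.5% of all members. The 7 members on chromosome Y were all intergenic and had medians of 90% and 73.7%, and 6 of them were mostly soft-masked. Over the 115 mostly soft-masked members R1 medians were 91.4% in ESCs and 71.4% in neurons, and Tet/Tet ESCs stood at 70.9% where listed. A tile near Zscan4b, of a family expressed in a small fraction of ESCs, went from 58.3% to 43.8% over 8 sites with every site lower. It was chosen after its values were seen, and it lies in a gene family with similar copies.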
